A study of Mus musculus with 10 samples.

Results

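Hp, Orm1, Serpina3n, Saa3, Lcn2, S100a8 and S100a9 are 7 genes for acute-phase proteins and alarmins, followed here in mouse peritoneum with and without exposure to peritoneal dialysis (PD) fluid. They were chosen by name, with the rise of several of them with PD fluid in Mr1+/+ mice already known, from the 21877 gene symbols of the count table. All 7 were among the 15385 genes tested. In that contrast the values that chose the genes are given below as a description, with no test. The study gave male C57BL/6 mice PBS or 4.25% PD fluid, the glucose-rich solution instilled into the abdomen of patients, by injection into the peritoneal cavity for 6 weeks, and sequenced RNA of the peritoneum. The 4 groups were Mr1+/+ mice given PBS, Mr1+/+ mice given PD fluid, Mr1-/- mice given PBS and Mr1-/- mice given PD fluid. Mr1 encodes the molecule that presents microbial metabolites to mucosal-associated invariant T cells. The same strain name is thus given for all animals. The labels give neither the age of the mice nor how the Mr1-/- allele was made, so other genetic differences between the genotypes are not known. The labels do not say which animal a library came from, so p-values reflect the spread among these samples only, and that spread may be technical.

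Acute-phase proteins are plasma proteins whose production rises in inflammation, when cytokines such as IL-6 and IL-1 act through the transcription factors STAT3, C/EBP and NF-kB. The liver is their main source, but fat cells, fibroblasts and macrophages also make several of them. The S100A8 and S100A9 proteins form the heterodimer calprotectin, which is abundant in the cytosol of neutrophils and monocytes, binds metal ions, and acts as an alarmin on TLR4 when released.

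The 10 deposited libraries held 14145635 to 16335799 counts each. Replicates 1 and 2 of Mr1+/+ PBS, and replicates 1 and 2 of Mr1-/- PD fluid, were nearly identical, with chi-square values per gene of 2.23 and 1.74 against 18.6 to 118 for the other 6 pairs within groups. Summing each pair into 1 sample gave 8 in all, with n = 2 (PBS) and n = 3 (PD fluid) for Mr1+/+, and n = 2 (PBS) and n = 1 (PD fluid) for Mr1-/-. Mr1 itself was at 21 to 32.5 CPM (counts scaled to a common library size) in the 5 Mr1+/+ samples and at 1.96 to 2.45 CPM in the 3 Mr1-/- samples. All genes of a fixed mesothelial marker list had counts in each sample, with summed levels of 118 to 771 CPM in 7 samples. The sum was 1157 CPM in Mr1+/+ PBS replicate 3, of which the epithelial keratins Krt8 and Krt19 made up 584 and 341 CPM, while the mesothelial gene Msln was at 10.5 CPM. Other tissue was present too. Mr1+/+ PBS replicate 3 held 5021 CPM of Pnlip, a pancreatic lipase, and 663 CPM of Muc2, an intestinal mucin. Adipoq, which encodes the fat-cell hormone adiponectin, was at 360 to 1643 CPM, and Alb, the liver gene for albumin, was at 0.215 to 2.17 CPM in Mr1+/+ samples and 64.1 to 107 CPM in Mr1-/- samples.

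The genes lie apart in the genome, except for the S100 pair (mm10, GENCODE M21). Hp spans chr8:109575128-109579172 on the minus strand with 5 exons, Orm1 chr4:63344560-63348163 on the plus strand with 6, and Serpina3n chr12:104406729-104414329 on the plus strand with 5. Saa3 spans chr7:46711998-46715700 on the minus strand with 4 exons, and Lcn2 chr2:32384633-32388252 on the minus strand with 6. S100a8 (chr3:90668978-90670035, plus strand) and S100a9 (chr3:90692632-90695721, minus strand) have 3 exons each. No exon of the 7 overlapped an exon of another gene. Of the 50-base stretches of the transcripts, 20.4% for Orm1, 6.9% for Serpina3n and 3.57% for Saa3 also occur in other genes, such as the copy Orm2, so the counts of these genes are less certain. For the other 4 genes the share was 0.

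Promoter windows of 250 bases before to 50 bases after the start were found for 5 of the 7 genes (RefSeq, GRCm38.p6). They were searched on both strands for 3 motifs of the factors named above. These were TTNNGNAAT for C/EBP, GGG and TCC parted by any 4 bases for NF-kB and TTCNNNGAA for STAT3, none of which overlapped another in these windows. The 3 windows with a match are printed 5′ to 3′ on the strand of the gene, with the matches in capitals, because they are the ones that hold a match.
Lcn2, chr2:32387690-32387989, minus strand: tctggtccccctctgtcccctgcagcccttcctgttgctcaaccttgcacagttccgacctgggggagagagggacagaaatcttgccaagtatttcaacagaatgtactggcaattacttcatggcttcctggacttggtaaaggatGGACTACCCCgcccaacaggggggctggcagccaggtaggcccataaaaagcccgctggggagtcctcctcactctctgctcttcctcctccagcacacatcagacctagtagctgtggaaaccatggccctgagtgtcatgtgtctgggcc
S100a9, chr3:90695672-90695971, minus strand: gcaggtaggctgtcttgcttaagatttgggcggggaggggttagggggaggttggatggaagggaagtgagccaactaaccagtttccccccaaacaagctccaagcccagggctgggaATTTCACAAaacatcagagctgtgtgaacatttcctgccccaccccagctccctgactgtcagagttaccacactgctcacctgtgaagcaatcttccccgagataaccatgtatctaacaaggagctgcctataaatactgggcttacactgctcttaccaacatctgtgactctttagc
Serpina3n, chr12:104406458-104406757, plus strand: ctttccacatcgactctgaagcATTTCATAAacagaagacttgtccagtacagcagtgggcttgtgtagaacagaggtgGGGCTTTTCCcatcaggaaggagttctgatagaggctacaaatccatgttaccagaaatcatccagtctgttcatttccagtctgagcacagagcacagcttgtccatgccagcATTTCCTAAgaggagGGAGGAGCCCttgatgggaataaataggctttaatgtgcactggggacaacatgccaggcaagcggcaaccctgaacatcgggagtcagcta
Lcn2 had 1 NF-kB match, from -102 to -93 relative to the start, and S100a9 had 1 C/EBP match, from -131 to -123. Serpina3n had C/EBP matches from -228 to -220 and from -57 to -49, and NF-kB matches from -171 to -162 and from -42 to -33. The windows of Saa3 and S100a8 held none of these letters. Over all 32544 promoter windows of this length, 11.4% held the C/EBP motif, 19.2% the NF-kB motif and 8.33% the STAT3 motif, against 2, 2 and 0 of the 5 windows here. A match is a description of the letters only.

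Hp encodes haptoglobin, the plasma protein that binds free haemoglobin. It was at 114 and 125 CPM in the Mr1+/+ PBS samples, at 590.2, 1636 and 2068 CPM in the Mr1+/+ PD fluid samples, at 221 and 172 CPM in the Mr1-/- PBS samples and at 233 CPM in the Mr1-/- PD fluid sample. Every Mr1+/+ PD fluid sample lay above the other 5, which ran from 114 to 233 CPM. In Mr1+/+ the mean went from 120 ± 7.73 (SD, n = 2) to 1431 ± 760 CPM (SD, n = 3), a log2 difference of 3.58 (SE 0.57). Hp was the most abundant of the 7 genes per length of transcript in both Mr1+/+ groups, with 88.9 ± 5.75 CPM per kb under PBS (SD, n = 2) and 1064 ± 565 CPM per kb under PD fluid (SD, n = 3).

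Orm1 encodes orosomucoid, or alpha-1-acid glycoprotein, a carrier of drugs and lipids in plasma. Its levels were 9.75 and 12.1 CPM under PBS and 36.6, 71.4 and 104 CPM under PD fluid in Mr1+/+, and 19.0 and 13.9 CPM under PBS and 29.1 CPM under PD fluid in Mr1-/-. The groups were ordered as for Hp, but the Mr1-/- PD fluid sample came closer to the lowest Mr1+/+ PD fluid sample. The Mr1+/+ difference was 2.70 on the log2 scale (SE 0.46).

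Serpina3n encodes a secreted inhibitor of serine proteases and is a mouse counterpart of alpha-1-antichymotrypsin. It stood at 157 and 129 CPM with PBS and at 245, 668 and 689.9 CPM with PD fluid in Mr1+/+, and at 156, 166 and 188 CPM in the 2 PBS samples and the PD fluid sample of Mr1-/-. This was the smallest difference of the 7 in Mr1+/+, 1.90 on the log2 scale (SE 0.45), from a level that was already the second per length under PBS (69.5 ± 9.61 CPM per kb, SD, n = 2).

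Saa3 encodes serum amyloid A3, an inflammation-induced lipoprotein component made largely outside the liver by macrophages and fat cells. It was at 0.554 and 4.63 CPM with PBS and at 0.744, 169 and 260.2 CPM with PD fluid in Mr1+/+, and at 0.068, 1.42 and 7.10 CPM in the 2 PBS samples and the PD fluid sample of Mr1-/-. PD fluid replicate 1 of Mr1+/+, with 12 counts, lay inside the range of the PBS samples, while replicates 2 and 3 had 2523 and 4015 counts. Saa3 was the only one of the 7 whose Mr1+/+ groups overlapped, and its log2 difference of 5.95 had an SE of 2.69. The higher PBS value, 66 counts, came from replicate 3, the library with pancreatic and intestinal RNA, and without that library the log2 difference was 8.0. The part of that RNA in the value was not tested.

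Lcn2 encodes lipocalin 2, which binds bacterial siderophores and so withholds iron. Its levels were 2.28 and 1.54 CPM with PBS and 7.63, 26.0 and 31.4 CPM with PD fluid in Mr1+/+, and 1.36, 1.01 and 2.62 CPM in the 2 PBS samples and the PD fluid sample of Mr1-/-. All Mr1+/+ PD fluid samples were above the rest, by a log2 difference of 3.48 from Mr1+/+ PBS (SE 0.64).

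S100a8 was at 0.584 and 0.281 CPM with PBS and at 0.682, 5.03 and 7.06 CPM with PD fluid in Mr1+/+, and at 0.340, 0.0677 and 0.0947 CPM in the 2 PBS samples and the PD fluid sample of Mr1-/-. These were few reads, between 0 and 109 counts in each library, and replicate 1 of Mr1+/+ PD fluid, at 11 counts, barely exceeded the PBS samples. S100a8 passed the filter on low counts only through the Mr1+/+ PD fluid group. S100a9, its partner, was at 0.800 and 0.281 CPM with PBS and at 2.79, 10.1 and 15.6 CPM with PD fluid in Mr1+/+, and at 0.272, 0.541 and 0.221 CPM in the same order in Mr1-/-. The groups of S100a9 stood further apart in Mr1+/+. The log2 differences there were 3.23 for S100a8 (SE 1.05) and 4.05 for S100a9 (SE 0.86).

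**Figure D1:**
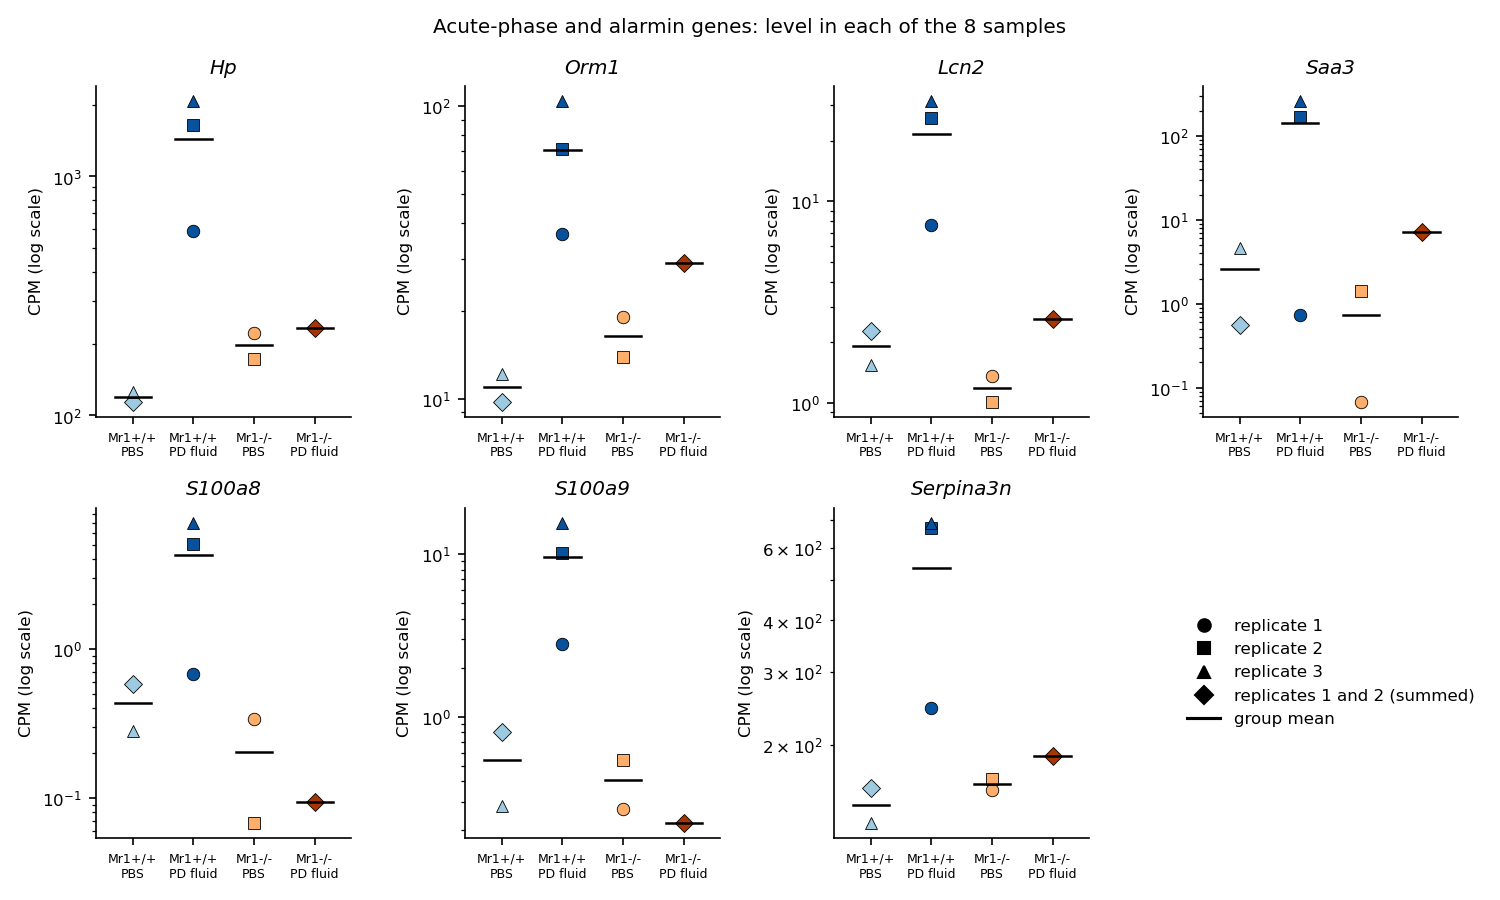
Level of each of the 7 genes in the 8 samples, in CPM on a log axis, by group; each point is 1 sample and the line is the group mean. Mr1+/+ PD fluid replicates 2 and 3 are the 2 highest points in every panel, and Saa3 is the only gene with a Mr1+/+ PD fluid sample among the PBS values.

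The log2 difference with PD fluid in Mr1+/+ was positive for all 7 genes, also with each library, or the summed Mr1+/+ PBS pair, left out in turn. It then ran from 3.20 to 3.95 for Hp, from 2.29 to 3.01 for Orm1, from 1.65 to 2.24 for Serpina3n, from 3.10 to 3.89 for Lcn2 and from 4.97 to 8.0 for Saa3. For S100a8 it ran from 2.64 to 3.90 and for S100a9 from 3.48 to 5.06. The lowest value came without PD fluid replicate 3 for every gene but Saa3. All Mr1+/+ PD fluid samples lay above all Mr1+/+ PBS samples for 6 of the 7 genes, as for 25.0% of all genes tested. Over all 15385 genes tested, 7091 log2 differences were positive in the main fit. The 7 genes were picked on this contrast, so nothing is read from these values, and no count of genes past a threshold is given for the 7 in it.

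The 3 Mr1+/+ PD fluid samples were far from alike. Hp was 4.94, 13.7 and 17.3 times the PBS mean in replicates 1, 2 and 3, and Lcn2 3.99, 13.6 and 16.5 times. For Saa3 the ratios were 0.287, 65.3 and 100.3, and for Serpina3n 1.71, 4.66 and 4.81. The coefficient of variation within the group ran from 46.9% for Serpina3n to 91.8% for Saa3. Replicates 2 and 3 exceeded all 6 other samples for 7 of 7 genes, and for 17.2% of all genes tested. All 3 samples exceeded the other 5 for 6 of 7 genes, the exception being Saa3, and for 16.5% of all genes. Since the choice of the genes used these samples, the counts are descriptions.

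**Figure D2:**
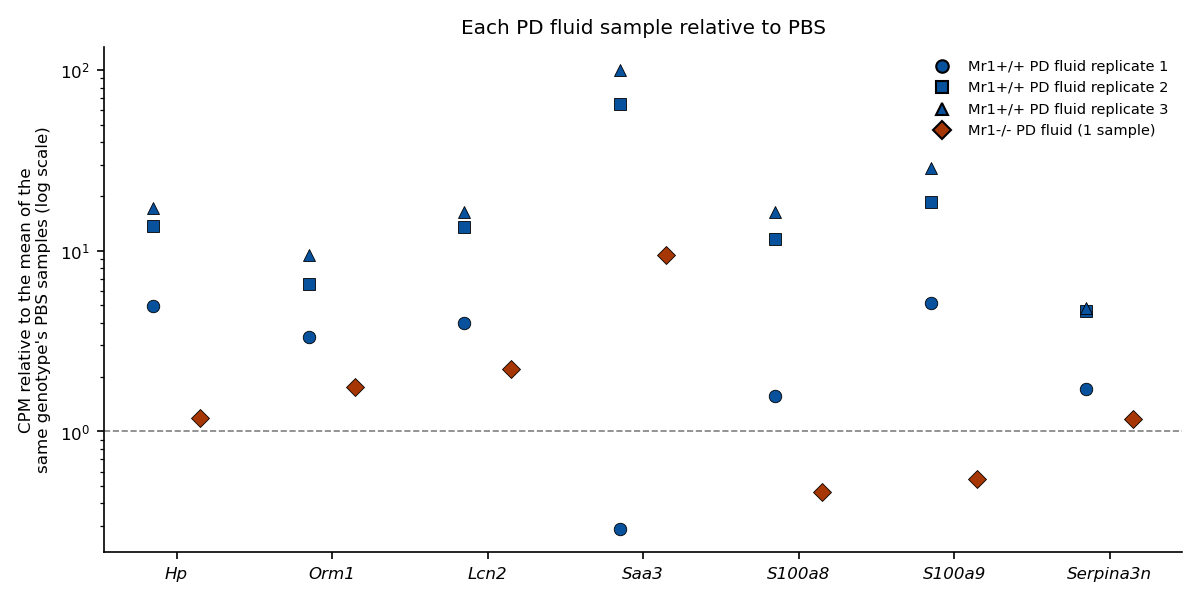
Level of each gene in each PD fluid sample divided by the PBS mean of the same genotype, on a log axis with 1 marking no difference; each point is 1 sample. Ratios in Mr1+/+ replicates 2 and 3 run from 4.66 to 100.3, those in Mr1+/+ replicate 1 from 0.287 to 5.16, and those in the Mr1-/- sample from 0.465 to 9.54.

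In Mr1-/- peritoneum none of the genes passed with PD fluid. The log2 differences here share no library with the contrast that chose the genes, and rest on 1 PD fluid sample against 2 PBS samples. Their SEs and p-values use a spread shared by all groups. That spread includes the Mr1+/+ PD fluid samples that chose the genes, so the test is not independent of them. S100a8 and S100a9 passed the filter on low counts only through Mr1+/+ samples, so a test in Mr1-/- says little of them. For the other 5 genes the adjusted p was 1 each (edgeR's quasi-likelihood test, Benjamini-Hochberg), and none had an unadjusted p under 0.05 or was called by DESeq2. Fitted on the Mr1-/- groups alone, where only these 5 genes passed the filter, 1 of them, Orm1, had an unadjusted p under 0.05, and the adjusted p was 1 for each (edgeR, Benjamini-Hochberg). Over all genes 0 (0%) were called by edgeR and 3 by DESeq2, and 231 had an unadjusted p under 0.05.

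Hp differed by 0.24 on the log2 scale (SE 0.64), Orm1 by 0.83 (SE 0.54), Serpina3n by 0.23 (SE 0.56), Lcn2 by 1.14 (SE 0.77) and Saa3 by 3.24 (SE 3.25). For these 5 genes the PD fluid sample was above both PBS samples, as for 28.7% of all genes. S100a8, whose PD fluid sample lay between the PBS samples, had 3 counts with PD fluid and 6 with PBS, a ratio of CPM of 0.465 (95% counting interval 0.0753 to 2.18). Its log2 difference was -1.05 (SE 1.62), and 0.45 without Mr1-/- PBS replicate 1. S100a9 had 7 and 12 counts, a ratio of 0.543 (95% counting interval 0.181 to 1.5), and was below both PBS samples, as were 27.9% of all genes. Both intervals cover counting error only and include no difference.

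Between genotypes under PBS the differences lay in both directions. These values share the Mr1+/+ PBS samples with the contrast on which the genes were chosen, and are given without a p. Hp was at 196 ± 34.1 CPM in Mr1-/- (SD, n = 2), higher than in Mr1+/+ by 0.72 on the log2 scale (SE 0.53), and Orm1 was higher by 0.59 (SE 0.46). Both Mr1-/- samples lay above both Mr1+/+ samples for Hp and Orm1, and below for Lcn2, which differed by -0.70 (SE 0.67); 20.5% of all genes were separated upward and 18.1% downward. The liver also makes Hp and Orm1, and the liver gene Alb moved with the same genotype, as given above. Fat-cell markers were higher in Mr1-/- for 16 of 17 tested, with a median log2 difference of 0.53, against 7421 of 15385 for all genes. The part of liver or fat in these values was not tested. Serpina3n differed by 0.16 (SE 0.46), Saa3 by -1.62 (SE 3.22), S100a8 by -1.11 (SE 1.21) and S100a9 by -0.48 (SE 0.92). Of all genes tested, 0.0130% were called in this contrast by edgeR.

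Under PD fluid the fitted difference was negative for all 7 genes, with lower levels in Mr1-/- than in Mr1+/+, and for 7650 of the 15385 genes tested. The Mr1+/+ PD fluid samples are again those that chose the genes. The log2 differences, Mr1-/- against Mr1+/+, were -2.62 for Hp (SE 0.72), -1.28 for Orm1 (SE 0.56), -1.51 for Serpina3n (SE 0.58) and -3.04 for Lcn2 (SE 0.84). Saa3 differed by -4.33 (SE 3.27), with the Mr1-/- sample above Mr1+/+ replicate 1. S100a8 and S100a9 passed the filter on low counts only through Mr1+/+ samples, so the size of their differences is a description only. S100a8 had 3 counts in Mr1-/- against 195 in the Mr1+/+ samples together, a log2 difference of -5.40 (SE 1.67). The ratio of CPM was 0.0226 (95% counting interval 0.00461 to 0.0669). S100a9 had 7 against 436, a log2 difference of -5.38 (SE 1.29) and a ratio of 0.0235 (95% counting interval 0.00941 to 0.0489). Both intervals cover counting error only. The Mr1-/- sample was below all Mr1+/+ samples for 6 of 7 genes, and for 33.9% of all genes. Of all genes tested, edgeR called 0.0130% in this contrast.

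The difference between genotypes in the response, Mr1-/- minus Mr1+/+, was negative for all 7 genes, and for 7565 of the 15385 genes tested. This difference was -3.34 for Hp (SE 0.88), -1.87 for Orm1 (SE 0.72), -1.67 for Serpina3n (SE 0.73), -2.34 for Lcn2 (SE 1.02) and -2.71 for Saa3 (SE 4.42) on the log2 scale. For S100a8 it was -4.28 (SE 1.97) and for S100a9 -4.91 (SE 1.5). It uses the Mr1+/+ samples that chose the genes and is given without a p. Of all genes tested, edgeR called 0%.

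The 7 genes varied together over the 8 samples, which share the large step of the Mr1+/+ PD fluid group. Pearson correlations of log2 CPM ran from 0.68 for Saa3 with S100a8 to 0.98 for Hp with Orm1 (n = 8 samples, a description). Genes with patterns most like each member were found among 11540 or 11541 tested genes with a mean of at least 5 CPM. For Hp they were Slc27a1, a fatty acid transporter (r = 0.995), Irs3, an insulin receptor substrate of mouse fat cells, and Crls1, the cardiolipin synthase. Orm1 was matched by Gsta3, Crls1 and Atoh8, with Gsta3 at 0.992. Lcn2 was matched by Pea15a at 0.996, and by Crtap and Pcolce, both of collagen processing. Serpina3n was closest to Pcx, the pyruvate carboxylase, at 0.993, then to the collagen chaperone Serpinh1 and to Gna12. The closest genes of S100a9 were Napa at 0.997, Mtfr1l and Blvra, of S100a8 Clpb at 0.974, Trit1 and Mknk2, and of Saa3 Mib2 at 0.965, Mfap4 and Bcs1l.

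Of 28 tested acute-phase genes besides the 7, 4 rose with PD fluid in Mr1+/+ and none fell (edgeR, Benjamini-Hochberg adjusted p under 0.05), against 8.49% and 6.37% of all genes. The median log2 difference was 0.75, against -0.06 for all genes. The 4 were Lbp, the lipopolysaccharide-binding protein (1.62, SE 0.25), Serping1, the C1 inhibitor (0.94, SE 0.15), the serpin Serpina3c (1.47, SE 0.26) and complement C3 (0.70, SE 0.20). Lbp was at 15.8 and 18.0 CPM with PBS and at 39.2, 56.2 and 61.2 CPM with PD fluid, so its groups did not overlap. Larger log2 differences that did not pass included those of Saa2 (6.48, SE 2.65) and Itih4 (3.04, SE 0.86). Fga, Fgb, Fgg and Mug1, among the 28, had at most 1 count in any Mr1+/+ library.

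Of 17 other S100 proteins and alarmins, 6 rose in Mr1+/+ and none fell, with a median of 0.84. They included Anxa1, which encodes annexin A1 (1.84, SE 0.26), and the calcium-binding S100a11 (0.98, SE 0.15), S100a1 (1.5, SE 0.28) and S100a16 (1.18, SE 0.25). Anxa1 is known to dampen neutrophil recruitment. S100a9 and S100a8 had larger log2 differences than these 4.

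Receptors of the encoded proteins formed a list of 17 genes, of which 6 rose in Mr1+/+ and none fell, with a median of 0.66. Cd163, the macrophage receptor that takes up haptoglobin bound to haemoglobin, was at 28.4 and 41.8 CPM with PBS and 104, 129 and 107 CPM with PD fluid in Mr1+/+, and the log2 difference was 1.69 (SE 0.22). In Mr1-/- Cd163 was at 25.8 and 19.8 CPM with PBS and 74.8 CPM with PD fluid, a log2 difference of 1.71 (SE 0.27) that did not pass (edgeR, Benjamini-Hochberg adjusted p = 0.93). The difference in response between genotypes was 0.016 for Cd163 (SE 0.34, edgeR, Benjamini-Hochberg adjusted p = 0.99), where that of Hp, its ligand, was -3.34. Mcam rose by 1.42 (SE 0.23), Scarb1, a lipoprotein receptor, by 0.80 (SE 0.18), and Cd36 by 1.67 (SE 0.38). Slc22a17, the lipocalin 2 receptor, gave 0.66 (SE 0.19) and Tlr4 0.38 (SE 0.22), and neither passed.

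Of 31 cytokines, cytokine receptors and transcription factors that induce acute-phase genes, 5 rose and 2 fell in Mr1+/+, with a median of -0.01. Cebpa, a C/EBP factor also central to fat cells, rose by 1.47 (SE 0.20), the TNF receptor Tnfrsf1a by 0.78 (SE 0.14) and Il11ra1 by 0.75 (SE 0.15), while Il17ra fell by 1.07 (SE 0.19) on the log2 scale. The cytokine genes themselves did not pass. Il6 had 2 to 14 counts per library and a log2 difference of 0.56 (SE 0.85). Il1b gave 0.60 (SE 0.41), Tnf 0.31 (SE 0.40) and Osm -0.60 (SE 0.25). The 4 lists together had 23 called genes, and 23 also without PBS replicate 3, but 13 without PBS replicates 1 and 2, 6 without PD fluid replicate 2 and 0 without PD fluid replicate 3. In Mr1-/- none of the genes of the 4 lists was called, and the list medians, in the order given, were 0.23, -0.09, 0.22 and 0.10, with -0.01 for all genes.

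**Figure D3:**
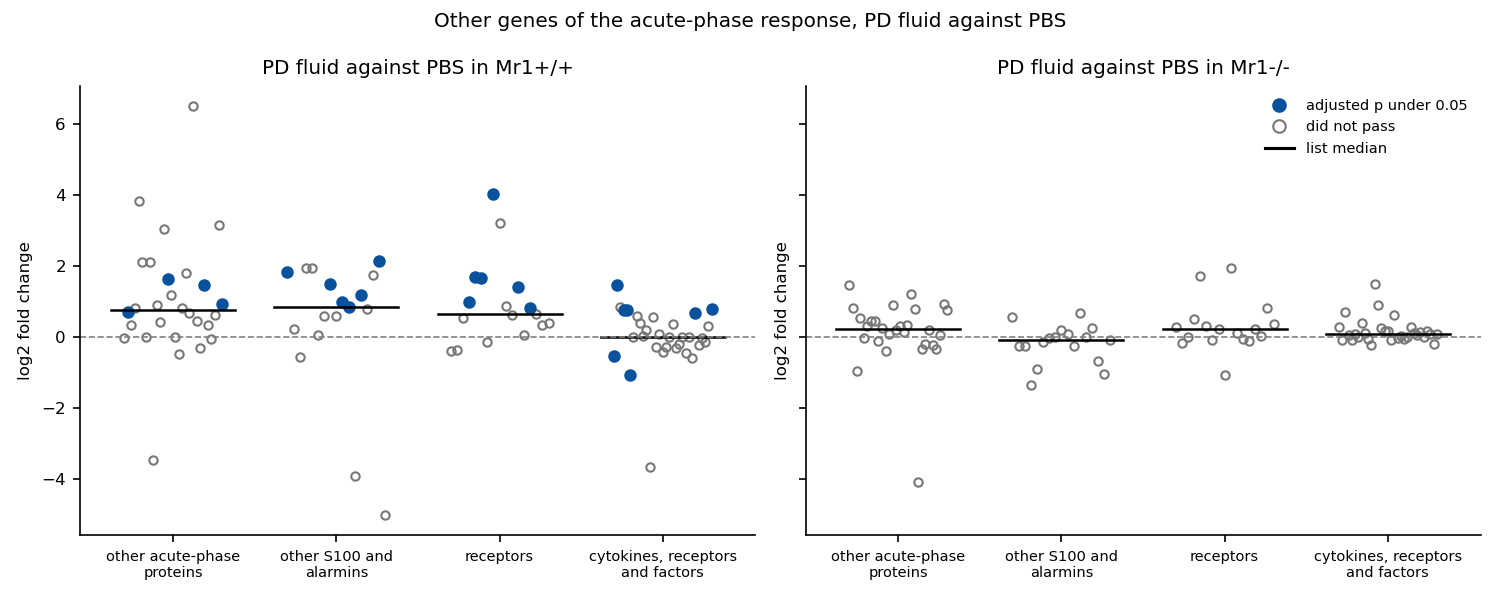
Log2 difference of PD fluid against PBS for each tested gene of the 4 lists, by genotype; each point is 1 gene, filled where the adjusted p was under 0.05, and the line is the list median. The medians in Mr1+/+ are 0.75, 0.84, 0.66 and -0.01, and those in Mr1-/- lie between -0.09 and 0.23.

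Markers of several cell types moved with the 7 genes with PD fluid in Mr1+/+. Counts of genes that rose or fell below are for that contrast, in which 8.49% of all genes tested rose and 6.37% fell. In bulk tissue, a change in the number of cells of a type and a change in RNA per cell cannot be told apart. The 7 genes summed to 286 and 273 CPM with PBS and 884, 2585 and 3176 CPM with PD fluid in Mr1+/+, and to 397, 355 and 459.6 CPM in Mr1-/-. Of 15 tested neutrophil markers 3 rose, Mmp9 (1.52, SE 0.32), Elane (2.59, SE 0.60) and Hdc (1.76, SE 0.43), and none fell. The 18 neutrophil genes summed to 71.7 and 57.2 CPM with PBS and 74.2, 178 and 195 CPM with PD fluid in Mr1+/+, and to 40.3 to 65.6 CPM in Mr1-/-. Replicates 2 and 3 thus stood apart here too, but the defining gene Ly6g had at most 5 counts in any library. Ngp, a neutrophil granule gene, was at 25.8 and 36.3 CPM in replicates 2 and 3 and at most 3.84 CPM elsewhere. Mpo, Prtn3, Camp and Ltf of the list were also highest in replicates 2 and 3, as were 17.2% of all genes tested. Ltf was at 17.2 and 15.9 CPM there and at most 2.67 CPM elsewhere. The receptor genes Cxcr2, Il1r2 and Trem1 did not share this order. Cxcr2 was at 18.9 and 8.07 CPM with PBS and 2.79, 7.11 and 7.84 CPM with PD fluid in Mr1+/+. Csf3r shared it by a smaller margin, at 22.5 and 24.6 CPM with PBS and 21.6, 31.7 and 28.5 CPM with PD fluid in Mr1+/+. In Mr1-/- Csf3r was at most at 23.7 CPM. Il1r2 gave a log2 difference of -0.48 (SE 0.43), which did not pass. Between 1 and 5 of the 18 genes had no counts in a sample. The part of neutrophils in the S100a8 and S100a9 values was not tested.

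Fat-cell markers rose more widely. Of 17 tested, 13 rose and none fell, with a median of 1.62, among them Car3 (1.83, SE 0.24), Adrb3 (1.65, SE 0.23), Slc2a4 (1.26, SE 0.18) and Cfd, which encodes adipsin (1.89, SE 0.27). Their summed level was 6558 and 8134 CPM with PBS and 19446, 24290 and 28617 CPM with PD fluid in Mr1+/+, and 8949 to 13073 CPM in Mr1-/-, so the 3 Mr1+/+ PD fluid samples were again highest. At most 1 of the 18 genes had no counts in a sample. With the mean log2 CPM of these markers as a covariate, the Mr1+/+ log2 difference was 0.99 for Hp (SE 1.46), 0.86 for Lcn2 (SE 2.22), 0.80 for Serpina3n (SE 1.65), 2.85 for S100a9 (SE 3.49), -0.026 for Orm1 (SE 0.98), -2.56 for S100a8 (SE 3.93) and -6.39 for Saa3 (SE 10.6). The marker score was 8.72 to 9.13 in the Mr1+/+ PD fluid samples and 7.12 to 8.10 in the other 5, so score and group cannot be told apart in this fit.

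Of 12 tested fibroblast markers 10 rose and none fell, including Scara5 (1.48, SE 0.19) and Dpt (1.95, SE 0.26). Of 15 macrophage and monocyte markers 6 rose, including Mrc1 (1.2, SE 0.24) and Ccr2 (1.53, SE 0.35). Erythroid genes ordered the samples differently. Their summed level in Mr1+/+ was 18.1 and 35.7 CPM with PBS and 239.6, 84.9 and 111 CPM with PD fluid, highest in replicate 1, where the 7 genes were lowest of the PD fluid samples. Of 12 genes of the glucocorticoid response, which raises several acute-phase genes, 3 rose, Pdk4 (1.26, SE 0.28), Klf9 (0.97, SE 0.24) and Cebpd (0.77, SE 0.21). Liver markers had 2 of 13 that rose, Cyp2e1 (1.60, SE 0.22) and Alb (2.20, SE 0.59), the latter within the 0.215 to 2.17 CPM given above. In the same Mr1+/+ samples Cyp2e1 was at 1383 to 4986 CPM, and which cells it came from was not tested. The median of the liver list was -1.50, with 9 of 13 values negative. The mesothelial, intestinal and pancreatic lists had no called gene. All 10 intestinal values were negative, with a median of -7.79, as were all 10 pancreatic values, with a median of -2.56. The summed levels of both lists were highest in Mr1+/+ PBS replicate 3, at 2300 and 27796 CPM. Of the 12 mesothelial values 8 were positive, with a median of 0.81. The skeletal muscle list had 1 of 8 that rose, Myl1 (2.15, SE 0.26), with 5 of 8 values negative and a median of -0.50. The part of these cells in the levels of the 7 genes was not tested. In Mr1-/- no gene of these lists was called.

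**Figure D4:**
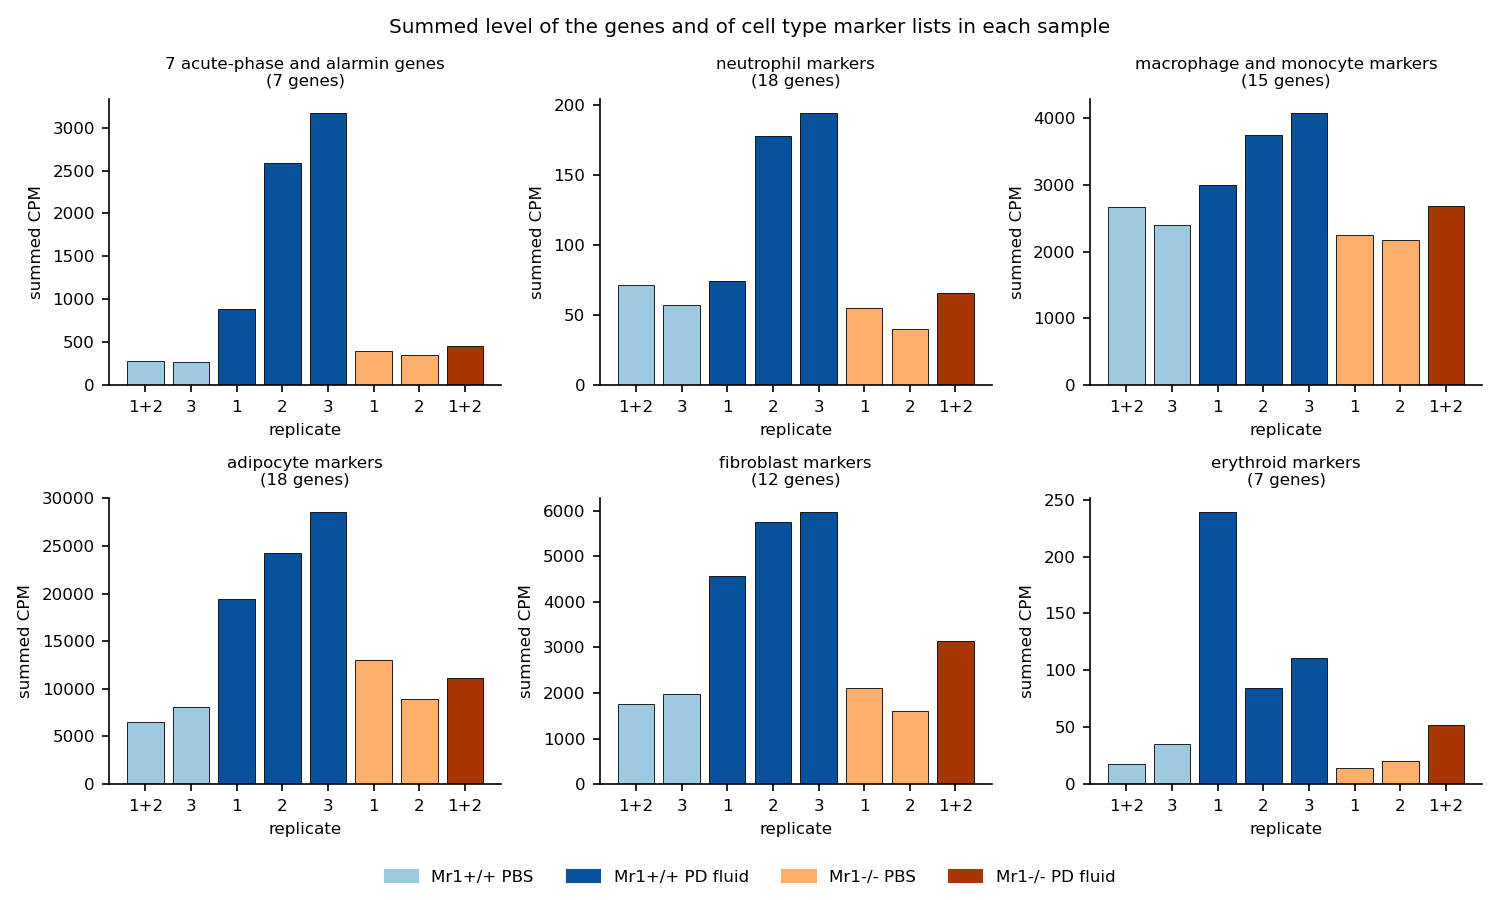
Summed CPM of the 7 genes and of 5 marker lists in each of the 8 samples; each bar is 1 sample, coloured by group and numbered by replicate. The 7 genes and the neutrophil, macrophage and monocyte, fat-cell and fibroblast markers are highest in Mr1+/+ PD fluid replicates 2 and 3. The erythroid markers are highest in replicate 1.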

How the data were processed

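RNA of mouse peritoneum was measured in 10 libraries. The authors deposited raw whole-number counts by symbol. The submitters' processing notes name mm10 as the build. Aligner, counter and annotation were not given in the sources used here. The 21899 rows were summed to 21877 symbols, of which 97.0% matched GENCODE M21. Near-identical library pairs (chi-square per gene under 5) were summed to 1 sample, in place of the 10 separate samples of the planned fit, which is an alternative.

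Genes were kept with filterByExpr and scaled by TMM. Differences were tested with quasi-likelihood F tests on 4 group means (edgeR 4.0.16, R 4.3.3), with 4 residual degrees of freedom and Benjamini-Hochberg adjustment at 0.05 over 15385 genes. The single sample of Mr1-/- PD fluid takes its spread from the other groups. SEs come from the log2 difference and its F. Levels are CPM over TMM library sizes, and log2 CPM uses a prior count of 0.5. DESeq2 1.42.0 was 1 of 18 alternative settings. The fits were also run on simulated data with 100 genes changed 2-fold and 100 changed 4-fold. No result of those runs is given, so nothing is read from them.

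The 7 genes and the lists were chosen with earlier results of these data known. The text names the 7 genes, up to 4 called genes of each list by smallest p (with none called, up to 2), 7 fixed cytokine and receptor genes, and the 3 most similar genes of each member. Ngp, Ly6g, Cxcr2, Csf3r, Il1r2, Saa2, Itih4, the keratins, Msln and the genes of the closing section were chosen after their values were seen. So were Mpo, Prtn3, Camp, Ltf, Trem1, Fga, Fgb, Fgg and Mug1. Counting intervals cover counting error only, since the labels name no molecular identifiers, and no step that marks the strand is named.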

Additional observations from a re-analysis of the deposited data

Results flagged for a closer look

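S100a9 with PD fluid lay on opposite sides of PBS in the 2 genotypes. All 3 Mr1+/+ PD fluid samples (2.79, 10.1 and 15.6 CPM) lay above both Mr1+/+ PBS samples, and the Mr1-/- PD fluid sample (0.221 CPM) lay below both Mr1-/- PBS samples (0.272 and 0.541 CPM). The difference in response was -4.91 on the log2 scale (SE 1.5) and is given without a p, since the Mr1+/+ samples are those on which the gene was chosen. The Mr1-/- values rest on 3 to 8 counts per library, and the gene passed the filter on low counts only through Mr1+/+ samples. The Mr1-/- ratio of CPM was 0.543 (95% counting interval 0.181 to 1.5), which includes no difference. Of all genes tested, 27.9% were below both Mr1-/- PBS samples. No group had the 4 samples that a test for outlying samples needs.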

How the results depend on the processing

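Of 619 values of the 7 genes under the alternatives, 590 shifted by less than 1 SD or, where tested, kept their direction and their side of the threshold, 18 moved and 11 reversed. 10 reversals came with the fat-cell score as covariate: PD fluid in Mr1+/+ for Orm1 (-0.026), Saa3 (-6.39) and S100a8 (-2.56), genotype under PBS for Hp (-0.10) and Orm1 (-0.28), genotype under PD fluid for Orm1 (0.48) and Saa3 (4.22), and the interaction for Orm1 (0.76), Lcn2 (0.21) and S100a8 (1.54). The Saa3 interaction, within 1 SD of 0 in the main fit, became 9.31. S100a8 in Mr1-/- became 0.45 without Mr1-/- PBS replicate 1, and reached -4.87 without Mr1-/- PD fluid replicate 2, whose 3 counts were all of the group. The cause was not tested.

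Counts of called genes, over all genes and over the 4 pathway lists, are given in the order PD fluid in Mr1+/+, PD fluid in Mr1-/-, genotype under PBS, genotype under PD fluid and interaction. They were 2286, 0, 2, 2 and 0 over all genes and 23, 0, 0, 0 and 0 over the lists. With 10 separate libraries they were 5549, 2, 50, 3400 and 1490, and 42, 0, 5, 33 and 14. DESeq2 gave 3780, 3, 212, 1031 and 472, and 33, 1, 6, 15 and 6. With no filter on low counts they were 2328, 0, 6, 7 and 0, and 24, 0, 2, 2 and 0. Only the groups compared gave 2505, 0, 0 and 561, and 24, 0, 0 and 11, with no interaction possible. The fat-cell score gave 74, 0, 130, 23 and 50, and 0, 0, 4, 0 and 0. Leaving out 1 library gave ranges of 0 to 2751, 0 to 1, 1 to 665, 0 to 42 and 0 to 311, and of 0 to 25, 0 to 0, 0 to 6, 0 to 4 and 0 to 1. The Mr1-/- PD fluid pair could not be left out whole, as it is the only sample of its group.

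With the replicate block over the 10 libraries the counts were 5537, 0, 3, 2428 and 1915, and 43, 0, 0, 24 and 17. Libraries that share a number correlated at -0.14 to 0.17 in their deviations from the group means, with 2 of 13 pairs over 0.1. Libraries with different numbers ran from -0.18 to 0.18, with 4 of 24 pairs over 0.1. In a group of 2 libraries the deviations mirror each other, so this check cannot settle whether the numbers pair the samples.

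In PD fluid in Mr1-/-, none of the 7 genes, where fitted, was called by edgeR or DESeq2 under any setting run, and 2 had an unadjusted p under 0.05 without Mr1+/+ PD fluid replicate 1. S100a8 and S100a9 are limited by depth, with 0 to 8 counts per Mr1-/- library.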

Other observations

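Some other genes, picked after their values were seen, were highest in Mr1+/+ PD fluid replicates 2 and 3. Of all genes tested, 17.2% exceeded all other samples in both of these. Saa2, another serum amyloid gene, was at 9.12 and 13.1 CPM in Mr1+/+ PD fluid replicates 2 and 3 and at most 0.211 CPM elsewhere. Saa1 was at 8.86 and 11 CPM in these samples, at 8.35 CPM in Mr1+/+ PBS replicate 3 and at most 0.068 CPM in the rest. Itih4, an acute-phase inhibitor chain, was at 78.8 and 74.8 CPM in replicates 2 and 3 and at 4.80 to 15.4 CPM elsewhere. Chil3, a chitinase-like protein of macrophages and neutrophils, was at 9.93 and 11.2 CPM against at most 1.55 CPM. Orm2, the copy that shares sequence with Orm1, did not follow it, at 1.18 to 2.08 CPM in the Mr1+/+ PD fluid samples and 2.18 to 3.54 CPM in the others. Other acute-phase genes without this order included Cp, Orm3 and Serpina3f. In Mr1+/+ PD fluid replicates 1, 2 and 3, Cp was at 178, 169 and 151 CPM and Orm3 at 5.95, 5.10 and 3.89 CPM. Serpina3f was at 49.7, 29.4 and 30.2 CPM.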
